A study of Mus musculus with 12 samples.

Results

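The genes described here encode the proteins of the cytosolic ribosome. They were chosen by symbol: every platform gene symbol that begins with Rpl or Rps followed by a digit, plus Rplp0, Rplp1, Rplp2 and Rpsa, leaving out the Rps6k kinases and pseudogenes. The rule matched 65 symbols with 96 probes on the array. Of these, 63 genes with 88 probes were detected (detection p below 0.05) in at least 3 of the 12 arrays, out of 10025 genes tested, and Rpl3l and Rps4l, detected in 1 and 0 arrays, were not kept. By textbook role the 63 genes divided into 30 proteins of the large subunit, 3 proteins of its stalk, 23 proteins of the small subunit and 5 near-copies of another ribosomal protein (Rpl22l1, Rpl36al, Rpl39l, Rpl7l1 and Rps27l). The other 2, Rps19bp1 and Rps23rg1, match by name only: the first encodes a protein that binds Rps19 and the second is a retrogene of Rps23. A ribosomal protein whose symbol no probe carries alone, such as Rpl5, Rpl11 or Rps27a, was not analysed here.

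Regulatory T cells (Tregs), the Foxp3-positive CD4 T cells that restrain immune responses, were taken from perigonadal fat and from spleen of chow-fed C57BL/6 mice. The 4 groups of 3 arrays were fat Tregs of Tbetflox Foxp3Cre mice (fat knockout), fat Tregs of Foxp3Cre mice (fat control), spleen Tregs of Tbetflox Foxp3Cre mice (spleen knockout) and spleen Tregs of Foxp3Cre mice (spleen control). Mice of both genotypes thus carried a Cre with a yellow fluorescent tag driven from Foxp3, and in the knockouts it acts on floxed Tbx21, the gene of the transcription factor T-bet, in cells that express Foxp3; the labels give no age and no number of mice for an array. RNA was amplified before it was labelled, and each of 3 slides held 1 array of every group, in the same array position for each group, so that position and group cannot be told apart.

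A ribosome is built from a small subunit, which reads the messenger RNA, and a large subunit, which joins amino acids. Its protein parts are made in matched amounts in every cell, their messages are among the most abundant of all, and most of these messages begin with a run of pyrimidines, the 5′ terminal oligopyrimidine (TOP) tract, through which the kinase mTOR controls their translation. In T cells, ribosome production is known to rise when a resting cell is activated and starts to grow.

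The sequence around the transcription start is shown for the 6 genes that came out lower in fat over both genotypes, and for the paralog Rpl22l1, because the TOP tract is a known shared feature of the family. Each line runs from 30 bases before the start to 30 bases from the start on, on the coding strand, from RefSeq on GRCm38.p6, and capitals mark the longest run of C and T that lies within 20 bases on each side of the start. Rpl22 has a pair of annotated starts.
Rpl22, chr4:152325696-152325755, plus strand: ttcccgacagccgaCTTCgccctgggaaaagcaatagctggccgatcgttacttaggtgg
Rpl22, chr4:152324406-152324465, plus strand: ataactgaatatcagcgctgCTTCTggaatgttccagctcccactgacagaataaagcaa
Rpl22l1, chr3:28805478-28805537, plus strand: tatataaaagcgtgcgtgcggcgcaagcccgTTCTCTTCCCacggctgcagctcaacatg
Rpl4, chr9:64173357-64173416, plus strand: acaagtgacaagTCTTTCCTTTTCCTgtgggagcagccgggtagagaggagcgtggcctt
Rpl13a, chr7:45128716-45128775, minus strand: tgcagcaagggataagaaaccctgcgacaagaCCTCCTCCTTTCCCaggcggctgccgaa
Rpl14, chr9:120571487-120571546, plus strand: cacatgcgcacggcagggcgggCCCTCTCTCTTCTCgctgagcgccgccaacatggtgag
Rps6, chr4:86857338-86857397, minus strand: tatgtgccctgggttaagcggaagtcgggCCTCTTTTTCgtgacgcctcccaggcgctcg
Rps7, chr12:28635924-28635983, minus strand: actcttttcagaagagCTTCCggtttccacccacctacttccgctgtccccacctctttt

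Within 20 bases on each side of the start, Rpl4, Rpl13a and Rpl14 held runs of 14 pyrimidines, and Rps6 and Rpl22l1 runs of 10. The Rpl4 run began at -18 relative to the annotated start and ended before it. In the same span the longest run was 5 bases in Rps7 and 4 and 5 bases at the starts of Rpl22. The printed lines of Rps7 and of the first Rpl22 start hold longer runs outside that span. Of the 63 genes, 53 had 62 windows in the promoter table, each from 250 bases before to 50 bases after a start. A run of at least 8 pyrimidines within 20 bases of the start was present in 25 of these windows, or 40.3%, and in 16.05% of all 32851 windows in the table. Searched on both strands of the whole window, the Ets family motif CCGGAAG was found in 38.7% of the ribosomal protein windows and 8.86% of all windows. The YY1 motif AAGATGG was found in 12.9% of them and 6.34% of all, the E-box CACGTG in 12.9% and 7.15%, and TATAAA in 9.68% and 13.6%. The Ets and YY1 motifs share the letters AAG and can overlap, and a match describes the sequence only. The 24 genes with a pyrimidine run had a median fat minus spleen difference of -0.30 in knockouts and -0.21 in controls (log2), and the 29 genes without one had -0.32 and -0.32.

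Ribosomal protein genes were among the brightest on the array in every group. Levels are background-corrected, quantile-normalised log2 intensities, with 1 probe a gene. The median level of the 63 genes was 11.8, against 6.21 for all genes tested, and 52 of the 63 lay above the upper quartile of all genes, 7.76. Before normalization, their probes ranged from 81.3 to 26488 intensity units, and the brightest probe of each array of any kind lay between 21393 and 35122. They were detected in all 12 arrays for 53 genes. The other 10 were Rpl14, Rpl21, Rpl39l, Rpl6, Rpl7l1, Rplp0, Rps15a, Rps19bp1, Rps20 and Rpsa, with Rps15a and Rps19bp1 detected in only 4 arrays. At the detection threshold itself, a second probe of Rpl37 was detected in 3 arrays and kept, and second probes of Rpl28 and Rpsa, detected in 2 arrays, were left out.

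Replicate spread was small for this family: the median pooled SD within groups was 0.219 for the 63 genes, against 0.604 for all genes, and the median standard error (SE) of a difference between groups was 0.290, against 0.476. It was not small for all of them. Rplp0, a stalk protein that anchors the other stalk proteins, had the largest pooled SD at 1.53, followed by Rpl17 with 1.11 and Rps20 with 1.10. Probes at the very top of the array, such as that of Rpl23 (mean 14.50), take nearly the same value in every array because quantile normalization gives probes of equal rank an equal value.

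The arrays came from cells in which Treg genes were present throughout. Of 12 T cell and Treg markers, 9 were measured and detected in all 12 arrays, Foxp3 among them, and Ikzf4, Trac and Lck were not analysed here. Over both genotypes Il2ra, Ctla4 and Tnfrsf18 rose in fat (1.51, 1.11 and 0.86, log2), and Cd3g and Cd3e, which every T cell carries, fell (-0.73 and -0.72). The Tbx21 probe, whose place relative to the floxed part is not known here, was detected in 7 arrays and read 4.94 to 7.57 in fat knockout, 5.17 to 7.27 in fat control, 4.69 to 5.74 in spleen knockout and 4.54 to 5.19 in spleen control, so that it does not check the genotype labels. Macrophage and monocyte markers differed between the tissues. Of 16 listed, 13 were measured, and 10 of them rose in fat over both genotypes and none fell. Their summed level, as linear intensity, was 5140 to 9162 in fat knockout and 5396 to 17653 in fat control, against 612 to 1202 in spleen knockout and 409 to 2012 in spleen control. Of 6 adipocyte markers, Plin1 was detected in 0 arrays and Adipoq, Cidec and Lep in 1 each, while Adipor2 was detected in 12. Fabp4, which macrophages also express, was 4.72 higher in fat (log2, mean of genotypes, limma adjusted p = 0.001). The B cell markers Ms4a1, Pax5 and Cr2 were detected in 0 arrays, while Fcer2a was detected in 12, Cd79b in 10 and Blk in 4. Of these 3 measured B cell markers 0 passed the test. CD8 and NK cell markers were also detected: Cd8b1 and Prf1 in 12 arrays, Cd8a in 10, Klrb1c in 9, Eomes in 6 and Klrk1 in 4. Among these 6 markers measured Eomes alone rose in fat over both genotypes (1.29). Its rise in knockouts was 2.29, and its difference between the genotypes was 2.00 without passing the test. Of the 6 markers 1 was called higher in fat in knockouts and 0 in controls. Of the 3 stromal and endothelial markers measured, Pecam1 was detected in 12 arrays and Col3a1 and Cdh5 in 3 each, and none passed the test. Col1a1, Pdgfrb and Kdr were detected in 0 arrays. The part of these markers in the results below was not tested.

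The first question was whether ribosomal protein messages differ between fat and spleen Tregs, in each genotype. They were slightly lower in fat. The median level of the 63 genes was 11.73, 11.57 and 11.58 in fat knockout arrays and 11.64, 11.72 and 11.69 in fat control arrays, against 12.07, 12.04 and 12.02 in spleen knockout arrays and 12.07, 12.05 and 11.97 in spleen control arrays. All 6 fat arrays lay below all 6 spleen arrays, and the genotypes overlapped within each tissue. The all-gene medians of the same arrays spanned 6.23 to 6.40. In these bulk samples, fewer Tregs among the cells and less ribosomal protein RNA in each Treg cannot be told apart.

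**Figure D1:**
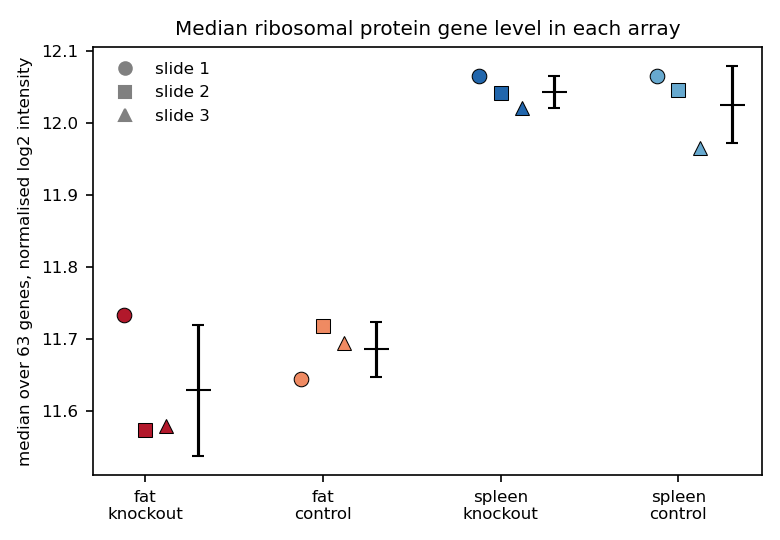
Median normalised log2 intensity over the 63 ribosomal protein genes in each of the 12 arrays (points; the shape gives the slide) by group, with the mean and SD of each group of 3 beside them. The 6 fat arrays lie between 11.57 and 11.73 and the 6 spleen arrays between 11.97 and 12.07.

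In knockouts, fat minus spleen was negative for 58 of the 63 genes, with a median of -0.32 (log2), against a median of -0.08 for all genes tested. In controls it was negative for 56 of 63, with a median of -0.23 against -0.06. The comparison that averages the genotypes gave 58 negative of 63 and a median of -0.27 against -0.07. Of all genes tested, 54.5% were negative in knockouts, 53.6% in controls and 54.5% over both. How far the family lay below all genes depended on the detection filter: with a detection p below 0.01 in at least 6 arrays, which kept 59 of the members, the all-gene medians were -0.17 in knockouts, -0.20 in controls and -0.20 over both, and the members' medians lay -0.14, -0.03 and -0.07 from them, where the gaps had been -0.23, -0.17 and -0.20. The median was negative within each slide, at -0.28, -0.39 and -0.38 in knockouts and -0.35, -0.15 and -0.29 in controls. Groups that did not overlap were common: all 3 fat arrays lay below all 3 spleen arrays for 24 of 63 genes (38.1%) in knockouts and 23 (36.5%) in controls, against 14.5% and 14.7% of all genes tested. No ribosomal protein gene had fat arrays all above spleen arrays in either genotype, against 11.5% of all genes in knockouts and 11.4% in controls. In both genotypes together, 17 genes (27.0%) had fat below spleen without overlap, against 6.44% of all genes: Rpl10a, Rpl12, Rpl13a, Rpl14, Rpl22, Rpl24, Rpl30, Rpl32, Rpl37, Rps10, Rps15, Rps16, Rps19, Rps19bp1, Rps4x, Rps6 and Rps7. Rps19bp1 among them matches by name only and passed the detection filter only through its spleen arrays. Its place in these counts is thus not a separate result. The small spread of the family, given above, moves with these counts, and the part of that spread in them was not tested.

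**Figure D2:**
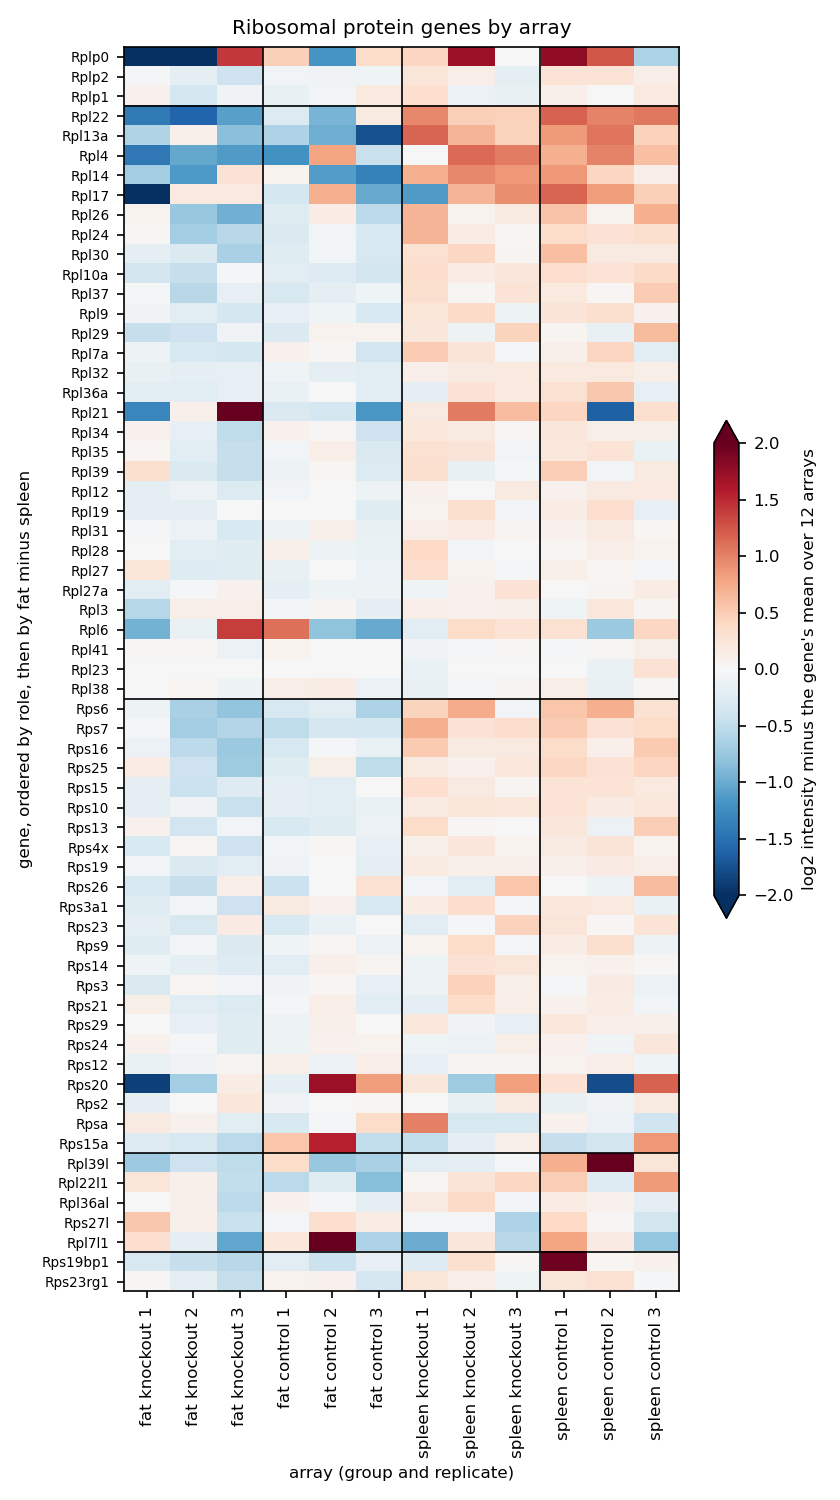
Normalised log2 intensity of each of the 63 genes in each of the 12 arrays, as the deviation from that gene's mean over all arrays (colour; values beyond 2 either way share the end colours). Rows are ordered by role (stalk, large subunit, small subunit, near-copies, name-only matches) and columns by group. By their means 58 of the 63 rows are lower in the fat columns than in the spleen columns. The median difference of -0.27 is small on this colour scale, and Rplp0, Rpl21, Rpl6 and Rps20 vary within groups.

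Few of these small differences passed the test of single genes (limma, Benjamini-Hochberg adjustment over 10025 genes, adjusted p below 0.05). In knockouts 2 genes, Rpl22 and Rpl4, were called lower in fat and 0 higher, where 2.38% of all genes were called lower and 3.39% higher. In controls 2 genes, Rpl13a and Rpl22, were called lower and 0 higher, where the background was 2.78% and 3.66%. Over the mean of the genotypes 6 genes (9.52%) were called lower, Rpl22, Rpl13a, Rpl4, Rpl14, Rps6 and Rps7, and 0 higher, against 8.41% and 7.27% of all genes. With this processing the share called lower is near the background in each comparison. The counts move with the processing: without background correction and in the authors' deposited table, 4, 4 and 17 genes were called lower in the 3 comparisons, and under median scaling 1, 0 and 2. Over both genotypes those 17 are 27.0% of the family, against 9.03% of all genes called lower without background correction and 9.10% in the deposited table, and the 2 under median scaling are 3.17%, against 4.53% of all genes. At an unadjusted p below 0.05 there were 10, 9 and 18 genes in the 3 comparisons (15.9%, 14.3% and 28.6%), against 19.5%, 20.7% and 29.98% of all genes tested.

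Rpl22, a large-subunit protein that binds RNA and that mice can do without for general translation, showed the clearest difference. Its level was 5.69, 5.53 and 6.02 in fat knockout and 6.84, 6.18 and 7.28 in fat control, against 8.07, 7.59 and 7.57 in spleen knockout and 8.29, 8.11 and 8.17 in spleen control. All 6 fat arrays were below all 6 spleen arrays. The fat knockout values lay close to the lowest signal of a detected probe in those arrays (5.23, 5.03 and 5.14). In knockouts it was 3.98-fold lower in fat (log2 difference -1.99, SE 0.34, limma adjusted p = 0.0050), in controls 2.68-fold lower (-1.42, SE 0.34, adjusted p = 0.028) and over both 3.26-fold lower (-1.71, SE 0.24, adjusted p = 0.00055). The call in controls was lost under median scaling (adjusted p = 0.088), cyclic loess (0.052) and a fit of the control groups alone (0.093), and without fat control array 1 or 2 or any of the 3 spleen control arrays. Without background correction the fold was 2.02 in knockouts and 1.93 over both (log2 -1.02 and -0.95), and in the deposited table it was 2.14 and 2.02.

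Rpl22l1, the near-copy that Rpl22 protein is known to repress, did not pass the test in either genotype. Its level was 10.38, 10.25 and 9.65 in fat knockout and 9.60, 9.90 and 9.30 in fat control, against 10.19, 10.41 and 10.56 in spleen knockout and 10.64, 9.89 and 10.998 in spleen control. The arrays of the tissues overlapped in each genotype, and fat minus spleen was -0.29 (SE 0.36) in knockouts and -0.91 (SE 0.36, adjusted p = 0.17) in controls.

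Rpl13a, a large-subunit protein that in human monocytic cells can leave the ribosome to silence inflammatory messages, read 9.06, 9.76 and 8.82 in fat knockout and 9.05, 8.68 and 7.92 in fat control, against 10.83, 10.34 and 10.10 in spleen knockout and 10.51, 10.73 and 10.12 in spleen control. All fat arrays were below all spleen arrays. The difference was -1.21 (SE 0.39, adjusted p = 0.097) in knockouts, -1.90 (SE 0.39, adjusted p = 0.013) in controls, a 3.73-fold lower level, and -1.56 (SE 0.28, adjusted p = 0.0026) over both. The call in controls was lost under median scaling (adjusted p = 0.068) and without spleen control array 1 (0.056) or 2 (0.060).

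Rpl4, a core large-subunit protein that reaches into the exit tunnel, read 6.05, 6.44 and 6.34 in fat knockout, against 7.47, 8.60 and 8.49 in spleen knockout. In controls it read 6.25, 8.27 and 7.02 in fat, against 8.18, 8.46 and 8.07 in spleen, and 1 fat array lay within the spleen range. The difference was -1.91 (SE 0.48, adjusted p = 0.037) in knockouts, -1.06 (SE 0.48, adjusted p = 0.24) in controls and -1.49 (SE 0.34, adjusted p = 0.012) over both. A second probe of Rpl4 gave -1.98 in knockouts (adjusted p = 0.015, every probe tested as its own feature), -1.37 in controls (adjusted p = 0.074) and -1.67 over both (adjusted p = 0.0021). The call for the first probe in knockouts was lost under median scaling (adjusted p = 0.13), cyclic loess (0.066), no detection filter (0.079), and on leaving out any fat knockout array, spleen knockout array 2 or 3, or any spleen control array, and the call over both genotypes was lost under median scaling (-1.16, adjusted p = 0.065). Rpl4 was 3.76-fold lower in fat knockouts and 2.80-fold lower over both genotypes, and 2.21-fold and 1.86-fold lower without background correction. In the deposited table the fold in knockouts was 2.32.

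Rpl14, a large-subunit protein, read 5.58, 5.12 and 6.56 in fat knockout and 6.34, 5.16 and 4.92 in fat control, against 6.99, 7.24 and 7.13 in spleen knockout and 7.14, 6.70 and 6.40 in spleen control. The fat arrays were below the spleen arrays within each genotype, and Rpl14 was detected in 1 of the 3 fat control arrays. It differed by -1.32 over both genotypes (SE 0.32, adjusted p = 0.016). This is a 2.498-fold lower level, and 1.47-fold without background correction and 1.52-fold in the deposited table. The call was lost under median scaling (adjusted p = 0.072).

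Rps6, the small-subunit protein that S6 kinase phosphorylates downstream of mTOR, read 10.40, 9.86 and 9.72 in fat knockout and 10.19, 10.29 and 9.90 in fat control, against 10.96, 11.25 and 10.45 in spleen knockout and 11.07, 11.22 and 10.81 in spleen control. All fat arrays were below all spleen arrays, and the nearest were a fat knockout array at 10.40 and a spleen knockout array at 10.45. It differed by -0.90 over both genotypes (SE 0.23, adjusted p = 0.020), and by -0.89 in knockouts and -0.91 in controls (adjusted p = 0.14 and 0.13). The call was lost under median scaling (adjusted p = 0.21), cyclic loess (0.058) and without spleen knockout array 2 (0.053).

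Rps7, a small-subunit protein, read 10.97, 10.31 and 10.42 in fat knockout and 10.51, 10.68 and 10.67 in fat control, against 11.72, 11.30 and 11.36 in spleen knockout and 11.52, 11.31 and 11.39 in spleen control. All fat arrays were below all spleen arrays. The difference over both genotypes was -0.84 (SE 0.21, adjusted p = 0.016), a 1.79-fold lower level. The call was lost under median scaling (-0.55, adjusted p = 0.12).

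**Figure D3:**
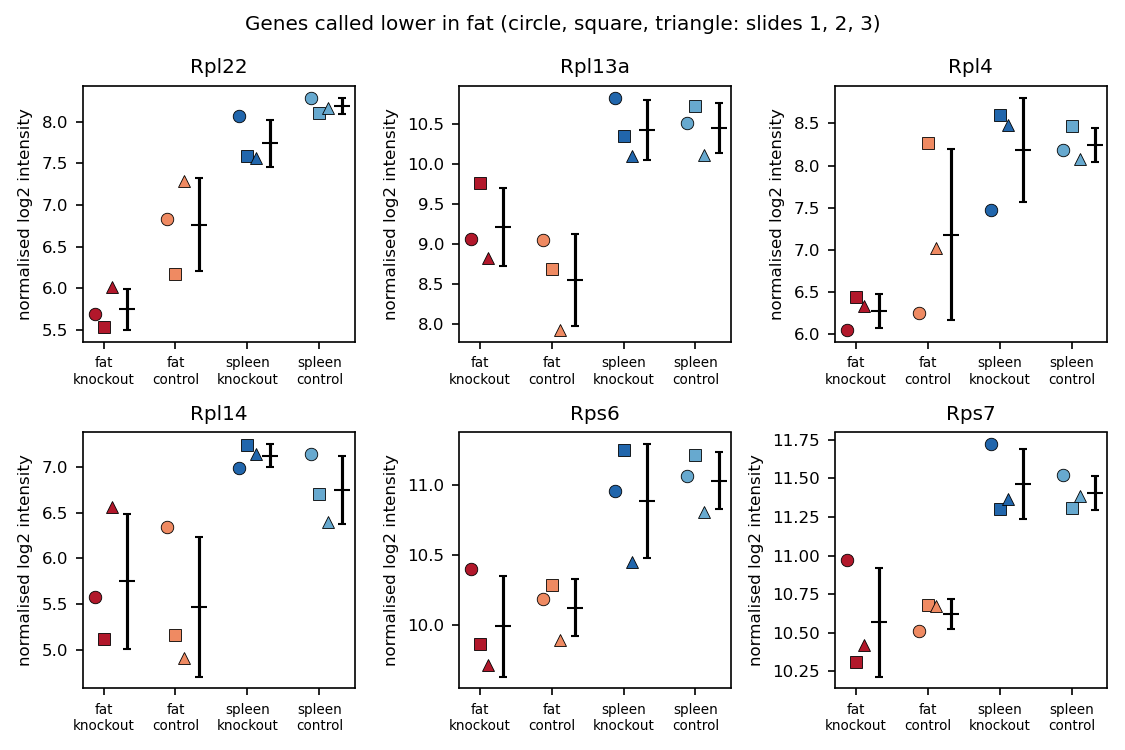
Normalised log2 intensity of the 6 genes called lower in fat over both genotypes, in each array (points; the shape gives the slide), with the mean and SD of each group of 3. The axes differ between panels and do not start at 0; within each genotype the fat arrays lie below the spleen arrays in every panel, except for 1 fat control array of Rpl4 (8.27).

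Each part of the ribosome had a negative median. Of the 30 large-subunit genes, 27 were negative in knockouts and 29 in controls, with medians of -0.33 and -0.28. Of the 23 small-subunit genes, 23 were negative in knockouts and 19 in controls, with medians of -0.32 and -0.18. The stalk proteins Rplp1 and Rplp2, which carry the acidic tails that recruit elongation factors, differed little: Rplp1 by -0.14 and -0.11, and Rplp2 by -0.27 and -0.30, in knockouts and controls. Rplp0 read 4.72, 5.49 and 9.32 in fat knockout and 8.38, 6.73 and 8.28 in fat control, against 8.34, 9.62 and 7.90 in spleen knockout and 9.68, 9.15 and 7.28 in spleen control. Fat knockout array 3 stood far above the other 2 of its group and within the spleen range. The Rplp0 difference in knockouts was -2.11 (SE 1.05, adjusted p = 0.30) and -3.51 without that array (adjusted p = 0.028). A second Rplp0 probe, detected in all 12 arrays, differed by -0.44 in knockouts and -0.46 in controls (SE 0.45, adjusted p = 0.67 and 0.63 with every probe tested as its own feature).

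Several small-subunit proteins are known for roles of their own. Rps19, the gene most often mutated in human Diamond-Blackfan anaemia, read 12.67, 12.44 and 12.52 in fat knockout and 12.65, 12.73 and 12.53 in fat control, against 12.91, 12.83 and 12.83 in spleen knockout and 12.83, 12.90 and 12.86 in spleen control. Its fat arrays were all below its spleen arrays, by -0.32 in knockouts and -0.23 in controls, and neither passed the test (SE 0.26, adjusted p = 0.56 and 0.66). Rps3, which lines the path by which messenger RNA enters and also takes part in DNA repair, differed by -0.26 and -0.07. Rpsa, also known as a laminin receptor, was near background at 4.94 to 5.33 in fat knockout and 4.85 to 5.51 in fat control, against 4.82 to 6.16 in spleen knockout and 4.75 to 5.24 in spleen control. Of 18 human Diamond-Blackfan anaemia genes, 10 were measured, and 10 of 10 were negative in each genotype (medians -0.31 in knockouts and -0.20 in controls). This is near the whole family, with 58 of 63 negative in knockouts and 56 in controls (medians -0.32 and -0.23). Rps7 alone was called over both, where 8.41% of all genes were called lower. The 6 measured proteins at the mouth of the exit tunnel, of 7 listed, were also negative in each genotype (medians -0.32 and -0.25), with none called; at an unadjusted p below 0.05 the counts for the whole family are given above.

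Only 3 genes were higher in fat by their mean in both genotypes, and none passed the test. Rps27l, a near-copy of Rps27 known as a p53 target, differed by 0.29 in knockouts and 0.13 in controls (SE 0.35). Rpl7l1, a near-copy of Rpl7 that works in ribosome assembly, differed by 0.15 and 0.62 (SE 0.71). Rpl38, which in mouse embryos favours translation of Hox messages, differed by 0.02 and 0.05 (SE 0.26). Signs differed between genotypes for 6 genes, Rpl23, Rpl41, Rps15a, Rps2, Rps20 and Rpsa. Rps20 had the largest gap, with 4.89, 6.08 and 6.90 in fat knockout and 6.57, 8.49 and 7.59 in fat control, against 6.99, 6.05 and 7.57 in spleen knockout and 7.05, 4.98 and 7.95 in spleen control. Those groups overlapped within each genotype, and the tissue differences were -0.91 in knockouts and 0.89 in controls (SE 0.78). Among the remaining pairs of copies, Rpl36a and Rpl36al differed by -0.30 and -0.30 in knockouts and by -0.35 and -0.05 in controls, and Rpl39 by -0.19 and -0.32 in knockouts and controls. Rpl39l, the testis-enriched copy of Rpl39, was detected in 0 fat knockout, 1 fat control, 1 spleen knockout and 3 spleen control arrays. It differed by -1.39 in controls (SE 0.47, limma adjusted p = 0.11). It passed the detection filter only through the spleen control arrays, so that difference is not a separate result. Rpl3 differed by -0.21 and -0.13, and its copy Rpl3l was not kept. Rps15a, at 4.44 to 4.73 in fat knockout and 4.48 to 6.54 in fat control, against 4.48 to 5.10 in spleen knockout and 4.52 to 5.85 in spleen control, was not well above background in most arrays. Rps19bp1 was detected in none of the 6 fat arrays, in 1 spleen knockout array and in 3 spleen control arrays. It passed the detection filter only through its spleen arrays, so its absence from fat is not a separate result. In controls the group means were 4.70 in fat and 5.67 in spleen, without passing the test (limma adjusted p = 0.26). The spleen control arrays read 6.92, 5.02 and 5.07. Their mean was 1.48-fold above the lowest signal of a detected probe in the fat control arrays, a gap that rests on the array at 6.92. In knockouts the spleen mean was not above that limit (log2 -0.13).

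Across the 63 genes, the tissue difference in knockouts followed that in controls, with a Pearson correlation of 0.67 and a Spearman correlation of 0.75. The points are genes, which are no independent replicates, and while the genotypes share no array, they share slides, probes and probe brightness. The difference was negative in both genotypes for 54 genes. Its size went with brightness: in the 21 dimmest genes (mean level 4.98 to 11.02) the median was -0.51 in knockouts and -0.78 in controls, in the middle 21 it was -0.37 and -0.23, and in the 21 brightest (12.3 to 14.5) it was -0.21 and -0.14. The dimmest genes also varied most, from -2.11 to 0.29 in knockouts and from -1.90 to 0.89 in controls. In controls 16 of these 21 were negative, against 21 in the middle and 19 in the brightest. In knockouts the counts were 19, 21 and 18.

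**Figure D4:**
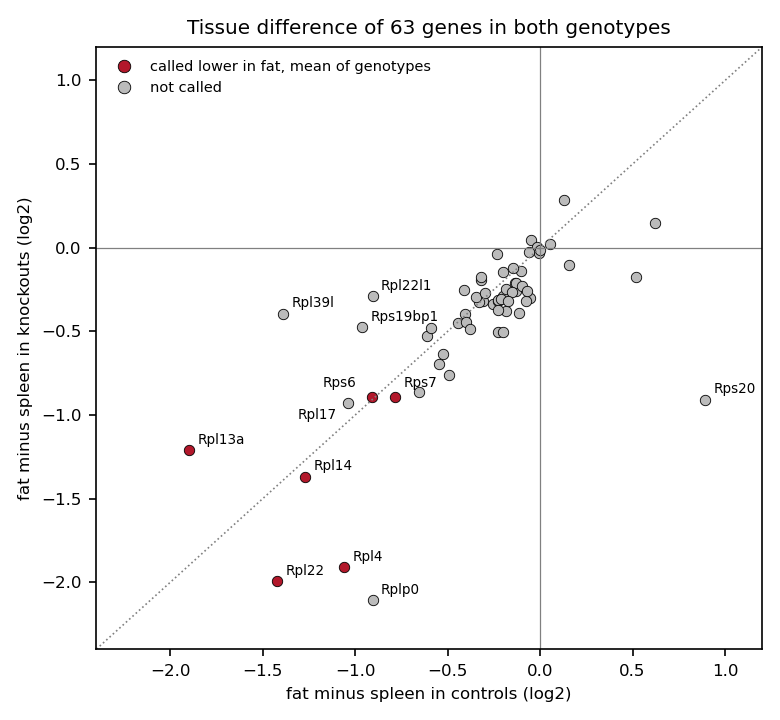
Log2 difference fat minus spleen in knockouts (vertical) against that in controls (horizontal) for each of the 63 genes, with the dotted line at equal differences. The 6 genes called lower over both genotypes are in red; 54 genes lie below and left of 0 and Rps20 lies at -0.91 in knockouts and 0.89 in controls.

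Probes of 1 gene also differed in size. Of the 63 genes, 17 had more than 1 detected probe, 42 probes in all, and all kept probes of a gene gave the same sign in 12 genes in knockouts, 14 in controls and 15 over both genotypes. Of the 25 probes that were not the brightest of their gene, 16 gave a more negative difference than the brightest in knockouts, 21 in controls and 19 over both. The medians of the 17 brightest probes and the 25 others were -0.26 and -0.23 in knockouts, -0.18 and -0.56 in controls, and -0.21 and -0.49 over both genotypes, so that the others were more negative by their median in controls and over both but not in knockouts. Rpl31, a protein at the exit of the tunnel, is the clearest example: its brightest probe differed by -0.21 over both genotypes (adjusted p = 0.55), and another probe by -1.83 (adjusted p = 0.00059, every probe tested as its own feature). One other probe each of Rpl27a, which sits in the large subunit, and Rpl23 was called lower over both genotypes (-1.41 and -1.21, adjusted p = 0.033 and 0.045), while their brightest probes differed by -0.17 and -0.00. With every probe tested, 10 of the 88 probes (11.4%) were called lower over both genotypes, against 7.04% of all probes tested. None of the 88 was called higher, where 1124 of all 16470 probes were. No gene had probes called in opposite directions. Which transcripts each probe reaches was not examined. Rpl22, Rpl13a, Rpl14, Rps6 and Rps7 had 1 kept probe each.

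The second question was whether loss of T-bet changed ribosomal protein messages in either tissue. No ribosomal protein gene passed the test in fat, in spleen or for the difference between the tissues, where 0.00998% (1 gene), 0% and 0% of all genes tested passed (limma); at an unadjusted p below 0.05 there were 1, 1 and 0 of the 63 genes, against 6.93%, 2.18% and 3.81% of all genes, and every alternative processing also gave 0 calls. In fat, 52 of 63 genes were lower in knockout by their mean, with a median of -0.10 (log2) against 0.01 for all genes, and in spleen 41 of 63, with a median of -0.04 against 0.00. Of all genes tested, 49.2% were lower in knockout in fat and 49.6% in spleen. The medians within slides were -0.00, -0.20 and -0.12 in fat and -0.06, -0.01 and -0.03 in spleen. Both genotype comparisons within a tissue use the same arrays as the tissue comparisons above, so they are no separate evidence for those.

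In fat the smallest p belonged to Rpl22, whose 3 knockout arrays (5.53 to 6.02) lay below its 3 control arrays (6.18 to 7.28). The difference was -1.02 (SE 0.34, unadjusted p = 0.011, limma adjusted p = 0.55). In spleen the knockout arrays of Rpl22 (7.57 to 8.07) also lay below the control arrays (8.11 to 8.29), with a difference of -0.45 (SE 0.34, adjusted p = 1.00). Rps20 (-1.59, SE 0.78) and Rpl4 (-0.90, SE 0.48) followed in fat, and both groups overlapped. On the other side, Rpl13a (0.66, SE 0.39), Rpl22l1 (0.49, SE 0.36) and Rpl21 (0.90, SE 0.76) had higher means in fat knockout than in fat control, again with overlap. In spleen the smallest p belonged to Rpl39l, at 4.95 to 5.14 in knockout and 5.42 to 7.38 in control, a difference of -1.21 (SE 0.47, unadjusted p = 0.026, adjusted p = 1.00). Rpl39l passed the detection filter only through its spleen control arrays, so its lower level in knockout is not a separate result. The tissue difference of Rpl22 was more negative in knockouts by 0.57 on the log2 scale (interaction -0.57, SE 0.48, adjusted p = 1.00), within the error.

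Other parts of the translation apparatus were examined from lists of genes, with the same fit. Mitochondrial ribosomal proteins, which serve the separate ribosome of mitochondria, had a more negative median than the cytosolic ones. Of 76 listed, 74 were measured, 65 were negative over both genotypes, 18 were called lower and 0 higher, against 8.41% and 7.27% of all genes, with a median of -0.69. In knockouts 6 were called lower and in controls 5, against 2.38% and 2.78% of all genes, with medians of -0.71 and -0.72. Mrpl1 differed by -2.68 in knockouts and -2.84 in controls (log2, adjusted p = 0.0050 and 0.0032), and Mrpl10 by -2.45 and -2.28 (adjusted p = 0.0037 and 0.0053). Mrpl2 differed by -2.38 in knockouts and Mrpl36 by -2.30 in controls (adjusted p = 0.018 and 0.011). Brightness was not matched between these lists, and the difference between them was not tested.

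Of 41 measured ribosome biogenesis genes, of 44 listed, 33 were negative over both genotypes, 4 were called lower and 0 higher, with a median of -0.34. A share of 8.41% of all genes was called lower, so 4 of 41 is near the background and shows nothing about the list. The 4 were Heatr1, a factor of ribosomal RNA transcription and processing (-1.30), Nop10, a part of the H/ACA particles that modify ribosomal RNA (-1.11), Ubtf, the upstream binding factor of RNA polymerase I (-0.73), and Npm1, the nucleolar chaperone nucleophosmin (-0.72; adjusted p = 0.026, 0.012, 0.038 and 0.045). Tsr1, a small-subunit assembly factor, fell by 1.70 in knockouts (adjusted p = 0.032). Of 17 measured ribosomal proteins under other names and TOP messages of translation, of 21 listed, 15 were negative over both genotypes with a median of -0.36. The initiation factor Eif4b alone was called (-0.91, adjusted p = 0.045), where 8.41% of all genes were called lower.

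Of 34 measured initiation factors, of 40 listed and Eif4b among them, 22 (64.7%) were negative over both genotypes with a median of -0.14. Of all genes 54.5% were negative. In this list 1 gene was called higher and 1 lower, against 7.27% and 8.41% of all genes, so the calls are not above the background. Eif2ak3, the stress kinase PERK that slows initiation, rose in knockouts by 1.52 (adjusted p = 0.019) and over both genotypes by 0.87 (adjusted p = 0.026), and in controls it differed by 0.22 without passing; the difference between the genotypes was 1.30 (SE 0.47, adjusted p = 1.00). Of 23 measured mTOR, S6 kinase and Myc regulators, of 29 listed, 2 were called higher and 1 lower over both genotypes, against 7.27% and 8.41% of all genes, again near or below the background. Mxd1, which competes with Myc for its partner Max, rose by 1.44 in knockouts and 1.73 in controls (adjusted p = 0.029 and 0.011). Rps6ka3, the kinase RSK2, rose by 1.16 over both, and Sesn1, a sestrin that restrains mTOR complex 1, fell by 1.21 (adjusted p = 0.035 and 0.036).

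**Figure D5:**
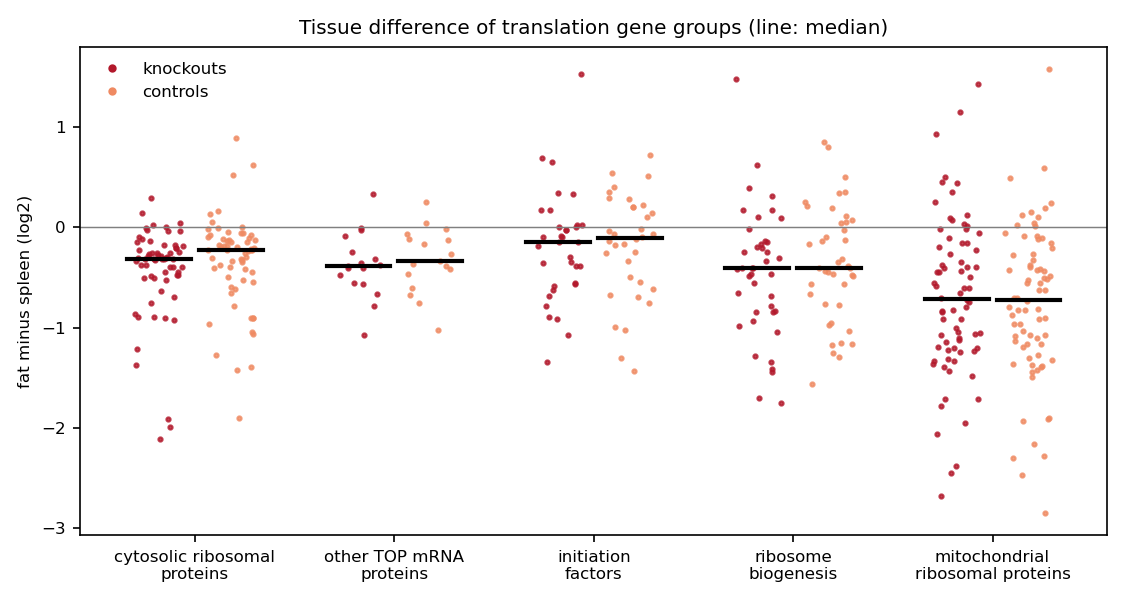
Log2 difference fat minus spleen of each measured gene (points) in knockouts (dark) and controls (light) for 5 gene groups of translation, with the median of each as a line. The medians of cytosolic ribosomal proteins are -0.32 in knockouts and -0.23 in controls, and those of mitochondrial ribosomal proteins -0.71 and -0.72.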

How the data were processed

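RNA was measured on 12 single-colour Illumina mouse bead arrays, 3 in each of 4 groups. The deposited tables give, per probe, the average signal intensity and a detection p-value, neither background-corrected nor normalized per the file headers, and a second table of intensity values normalized by the authors with a method not given in the sources used here. GenomeStudio was used, per the submitters' processing notes, which give no version. The labels give the amplified input as an amount of RNA in picograms, a unit that could not be checked. From the first table, background was corrected with limma's nec (limma 3.58.1 in R 4.3.3; negative controls inferred from the detection p-values, offset 16), followed by quantile normalization and log2. Of 45281 probes, 34885 carry 1 gene symbol in the platform annotation, 18 several and 10378 none. Probes with a detection p below 0.05 in at least 3 arrays were kept (20367), and the probe with the highest mean stood for its gene (10025 genes). A linear model of the 4 group means over all 12 arrays, with moderated variance (8 residual and 3.88 prior degrees of freedom), gave each comparison, with Benjamini-Hochberg adjustment and a threshold of 0.05. The labels name no animal behind an array, so a p-value covers only how these arrays vary, part of which may be technical, and precision is set by the few arrays a group.

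Members and gene lists were chosen with earlier results of these data known. Genes are named by rule: called members with the largest changes, or the 3 of smallest p in a direction where fewer than 3 were called; pairs of near-copies; members with a textbook role of their own; members at the detection threshold; and the leading genes of the neighbouring lists. Rpl23, Rpl27a, Rpl31 and Rpl17 are outside it and were chosen after their values were seen. The replicate number is the slide, from the array names in the labels: residuals of arrays on 1 slide correlated by -0.05 to 0.35 (median 0.07, 18 pairs), and those on different slides by -0.26 to 0.12 (median -0.04, 36 pairs). Tested on simulated data for fat against spleen in knockouts (10025 genes, 200 changed), the fit recovered 45% of changes of 2 on the log2 scale and 85% of changes of 3, with 10 false calls. Alternatives covered scaling, background, filters, probes, slide and each array left out.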

Additional observations from a re-analysis of the deposited data

How the results depend on the processing

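The direction of the tissue difference was the same under the alternatives tried, and the number of genes called was not. The median of the ribosomal protein genes was negative in knockouts, in controls and over both genotypes under each of the other settings, and no ribosomal protein gene was called higher in fat, or called between genotypes, in any of them. In knockouts, 1 gene (1.59%) was called lower under median scaling and under cyclic loess, against 1.17% and 1.72% of all genes. There were 4 genes (6.35%) without background correction and in the authors' deposited table, against 2.76% and 2.79%. Of the 88 probes tested as features, 4 (4.55%) were called lower in knockouts, against 1.91% of all probes. In controls, 0 genes were called lower under median scaling, against 1.38% of all genes. Under cyclic loess and with only the groups compared 1 (1.59%) was, against 1.85% and 1.53%. Without background correction, in the deposited table and without a detection filter 4 genes (6.35%) were, against 2.99%, 2.99% and 1.04%. With every probe as a feature 4 of the 88 probes (4.55%) were called lower, against 2.03% of all probes. Over both genotypes, 2 genes (3.17%) were called lower under median scaling, against 4.53% of all genes. There were 17 (27.0%) without background correction and in the deposited table, against 9.03% and 9.10%. An offset of 50 gave 13 (20.6%) against 8.90%, and no detection filter gave 16 (25.4%) against 3.57%. The mean of a gene's probes gave 10 (15.9%) against 9.34%, and every probe gave 10 of 88 probes (11.4%) against 7.04%. A detection p below 0.01 in at least 6 arrays gave 6 (10.2%) against 12.4%. The cause of these changes was not tested. Leaving out 1 array at a time gave 1 to 3 genes (1.59% to 4.76%) in knockouts, against 1.04% to 2.98% of all genes. In controls it gave 0 to 2, against 1.10% to 2.96%. The medians over both genotypes were then -0.30 to -0.23. The median itself moved to -0.13 in knockouts and -0.19 over both genotypes under median scaling, and over both to -0.31 under cyclic loess, -0.29 with the mean of probes and -0.31 with every probe. Within single slides it was -0.39 and -0.38 (knockouts, slides 2 and 3), -0.35 (controls, slide 1) and -0.30 (both, slide 1). For knockout against control, the median within slide 2 was -0.20 in fat and -0.0147 in spleen, leaving out 1 array gave -0.0449 to -0.0010 in spleen, and median scaling gave -0.26 in spleen. The difference of the tissue effects between genotypes had a median of -0.08, -0.21 within slide 2 and, with its sign turned, 0.12 under median scaling. Median scaling shifted the all-gene median in knockouts to 0.09 from -0.08, and the median of the ribosomal protein genes minus that of all genes was -0.22 in knockouts, -0.30 in controls and -0.25 over both, against -0.23, -0.17 and -0.20. That gap fell to -0.14, -0.03 and -0.07 with a detection p below 0.01 in at least 6 arrays. Median scaling took the share of all calls that were higher in fat to 77.3% in knockouts, 73.8% in controls and 65.5% over both, and cyclic loess to 68.7%, 68.3% and 57.1%, against 58.7%, 56.8% and 46.4%. With the replicate block (slide as a term), the pairing changed no call of a named gene and the median in knockouts was again -0.32. At 3 arrays a group, differences of the size of the family's median were mostly not called for single genes; Rps19 was called over both genotypes at -0.27 without a detection filter (adjusted p = 0.027) and not with it (0.35).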
